A study of Mus musculus with 10 samples.

Results

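Gapdh and G6pd2, a pair of genes of glucose metabolism that the array design lists under their own RefSeq transcripts, were followed on all 10 one-colour arrays of a study of mouse fat. The members are 2 of the 59709 probes measured, 1 for Gapdh (NM_008084.2) and 1 for G6pd2 (NM_019468.2). They were chosen by their identity on the design, with earlier results of these data known. The samples were brown fat from wild-type, chow-fed mice injected daily with saline for 7 days (2 arrays), white fat from such mice after saline (2 arrays) and white fat after the same schedule of CL316,243 at 1 mg/kg (2 arrays), which stimulates β3-adrenergic receptors and is called CL below. Brown adipocytes differentiating in culture had 1 array each on days 0, 3, 5 and 7. The labels call the tissue arrays biological replicates without saying how many mice each holds. They give no strain, age or white fat depot, and they do not say whether the cultured cells were primary cells or a line.

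Gapdh is glyceraldehyde-3-phosphate dehydrogenase, the enzyme of glycolysis that yields NADH, and its transcript is widely used as a reference for loading. Glucose-6-phosphate dehydrogenase opens the pentose phosphate pathway and yields NADPH, which fat cells use to build fatty acids. The parent gene, G6pdx, is X-linked and broadly expressed, while G6pd2 is an intronless copy of it made by retrotransposition and known from the male germline. Brown fat takes up glucose strongly when its β3-adrenergic receptors are stimulated, and white fat of rodents responds to the same agonists with lipolysis and the appearance of brown-like cells.

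In RefSeq (assembly GRCm38.p6) Gapdh lies on chromosome 6 between positions 125161852 and 125166467. G6pd2 lies on chromosome 5 between 61808843 and 61810477, a span of 1635 bases against 19398 for G6pdx on the X chromosome. The 250 bases before an annotated transcript start of each gene are shown because they tell the members apart. The Gapdh window lies inside the gene span given above, so it precedes a start within that span and not its outer end. They are written 5′ to 3′ on the strand of the gene. Capitals mark CpG dinucleotides in the Gapdh window (chr6:125165774-125166023, minus strand). In the G6pd2 window (chr5:61808593-61808842, plus strand) capitals mark bases of the longest exact run shared by sequences around the starts of G6pd2 and G6pdx. The whole transcripts were not compared. The sequences were not aligned, so any other shared bases are not marked.
Gapdh: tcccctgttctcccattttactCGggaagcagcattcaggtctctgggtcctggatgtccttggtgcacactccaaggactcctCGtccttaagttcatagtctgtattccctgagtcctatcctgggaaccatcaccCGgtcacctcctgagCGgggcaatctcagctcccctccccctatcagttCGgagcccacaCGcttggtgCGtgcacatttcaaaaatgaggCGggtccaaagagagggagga
G6pd2: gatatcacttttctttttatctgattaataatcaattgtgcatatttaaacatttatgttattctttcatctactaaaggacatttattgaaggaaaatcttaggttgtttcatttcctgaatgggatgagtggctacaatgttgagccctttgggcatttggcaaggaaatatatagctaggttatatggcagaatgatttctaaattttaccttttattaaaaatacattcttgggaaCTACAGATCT
The G6pd2 window held 0 CpG dinucleotides and 30.0% G or C, lower than in all but 1.47% of 32851 windows of the same length, and 7.87% of those windows held 0 CpG. The Gapdh window held 8 CpG dinucleotides and 55.6% G or C, near the medians of 6 CpG and 52.4% over all windows. The last 10 bases before the G6pd2 start opened a run of 27 bases shared exactly with the start of G6pdx, where that run began at base 16 of the transcript. The longest run shared by the Gapdh and G6pd2 sequences was 7 bases. On both strands, the TATA motif TATAAA was found in 12.4% of all windows, the GC box GGGCGG in 32.7%, the CCAAT box in 33.8% and the E-box CACGTG in 6.02%, and the windows of Gapdh and G6pd2 held 0 of each. The probe sequences were not used here, so how well the G6pd2 probe separates the copy from its parent was not tested, and G6pdx had 0 probes under its name. Gapdh has many processed pseudogenes in the mouse genome, and its probe likewise cannot be assigned to 1 locus with certainty.

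Each member was printed as 20 spots per array, all 20 well above background on every array and 0 saturated. The SD between spots of an array was 0.05 to 0.12 for Gapdh and 0.03 to 0.09 for G6pd2 on the log2 scale. Gapdh was very bright. Its mean signal ran from 121832 to 336002, and its brightest spot reached 51.2% of the saturation value. G6pd2 ran from 577 to 6676 and lay 5.07-fold to 60.6-fold above the 95th percentile of the negative control spots of its array. Levels below are log2 signal relative to each array's 75th percentile, and levels of the probes are not set against each other.

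All 6 tissue arrays shared a scan date, and the 4 culture arrays shared another, each taken here as a scan. Slide column and row were inferred from the parts of the barcode field in the file headers. Brown fat held rows 1 and 2 of slide column 1, saline white fat rows 3 and 4, and CL-treated white fat column 2, so tissue or treatment and slide position cannot be told apart. From rows 1 to 4 of column 1 the share of probes well above background was 55.2%, 67.8%, 74.0% and 77.3%, and in column 2 it was 62.4% and 63.4%. The same flag was set for 10.9% to 36.4% of the negative control spots. Replicates were at least 2-fold apart for 8.86% of tested probes in brown fat, 4.42% in saline white fat and 35% in CL-treated white fat. Of the brown adipocyte markers 0 of 7 and of the general adipocyte markers 0 of 7 were measured under their names, so the tissues could not be checked against them. In tissue, fewer cells of a type and less RNA per cell cannot be told apart.

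The first comparison asked how brown and white fat differ in these transcripts after saline. Gapdh was 9.91 and 9.54 in brown fat and 8.62 and 8.65 in white fat. The white fat replicates differed by only 0.03. The white fat mean of 8.64 ± 0.02 (SD, n = 2) was 2.13-fold lower than the brown fat mean of 9.72 ± 0.26 (n = 2). The difference of -1.09 (log2, SE 0.41, 95% interval -2.06 to -0.12) did not pass limma's threshold after adjustment (adjusted p = 0.13), where 10.4% of 43542 probes did. It was among the 29.8% of probes with an unadjusted p under 0.05.

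G6pd2 lay the other way. It was 1.44 and 1.48 in brown fat and 2.50 and 1.87 in white fat. Here the brown fat replicates were the close pair, 0.04 apart, against 0.64 for the white fat pair. White fat was 1.66-fold higher (log2 0.73, SE 0.53, 95% interval -0.52 to 1.98, limma adjusted p = 0.40), which did not pass the threshold either.

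**Figure D1:**
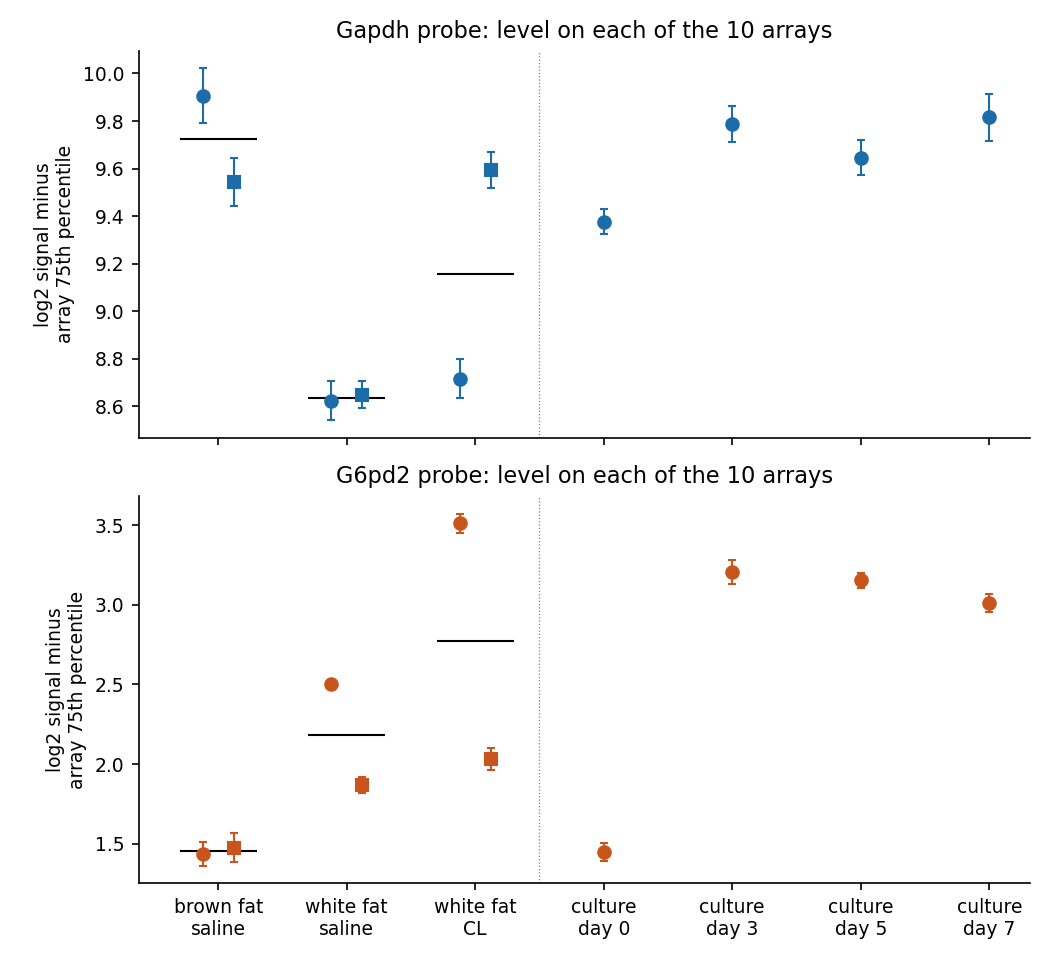
Level of the Gapdh probe (top) and the G6pd2 probe (bottom) on each array, as log2 signal relative to each array's 75th percentile. Circles are replicate 1 or the only array, squares replicate 2, error bars the SD over the spots of the array and black lines group means (n = 2). Gapdh was lowest in saline white fat and G6pd2 in brown fat and on culture day 0, and the CL-treated replicates lay 0.88 (Gapdh) and 1.48 (G6pd2) apart.

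Within an array the signal of G6pd2 over that of Gapdh does not depend on how the array is scaled by a single factor. This log2 ratio was -8.47 and -8.07 in brown fat and -6.12 and -6.78 in saline white fat, a 3.53-fold difference (log2 1.82) with no overlap. An exact two-sided permutation test gave p = 0.333, the smallest value that 2 arrays against 2 allow. With quantile normalization the difference was 1.16. The ratio does not tell which of the probes differed.

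The call for Gapdh depended on the setting. It passed limma's threshold when only brown and white fat after saline were fitted (adjusted p = 0.0252), without CL-treated replicate 1 (0.0275) or replicate 2 (0.0283), with array weights (0.0155) and when arrays were scaled on Actb, Ppia, B2m, Hprt and Tbp (log2 -1.59, 0.0238), while quantile normalization gave -0.48 (0.245). Calls over all probes also rose, from 4526 of 43542 tested probes as reported to 16207 of them with array weights, and to 14260 in the 2 groups alone. These calls were not counted with scaling on those 5 genes. With that scaling the median difference over all tested probes was -0.38, against 0.12 in the main scaling. In the main scaling Hprt, Actb, Tbp and B2m were themselves higher in white fat (log2 1.11, 0.64, 0.60 and 0.23) and Ppia was lower (-0.10). G6pd2 passed in no setting tried, and its difference was 0.23 with scaling on the 5 genes and 0.41 without saline white fat replicate 1.

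A further comparison, between CL-treated and saline white fat, addresses the response to the agonist. The treated replicates differed for both members, in opposite directions in this scaling. G6pd2 was 3.51 on CL-treated replicate 1 and 2.03 on replicate 2, a 2.78-fold gap, whereas Gapdh was 8.72 on replicate 1 and 9.59 on replicate 2, a 1.83-fold gap. For G6pd2 replicate 1 lay above both saline arrays and replicate 2 lay between them. For Gapdh replicate 1 lay within 0.1 of both saline arrays, and replicate 2 lay further above them.

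The unscaled signals give a different order for Gapdh. Its mean signal was 246276 on CL-treated replicate 1 and 181665 on replicate 2, and the 75th percentile of all probes on those arrays was 585 and 235. For G6pd2 the unscaled signals were 6676 and 964, replicate 1 being the higher before and after scaling. With quantile normalization Gapdh was likewise higher on replicate 1 (17.80) than on replicate 2 (17.58), as G6pd2 was (11.99 and 10.40). The part of array brightness in these gaps was not tested.

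The mean difference after CL was 0.52 for Gapdh (log2, SE 0.41, 95% interval -0.45 to 1.49) and 0.59 for G6pd2 (SE 0.53, 95% interval -0.66 to 1.84). Neither passed limma's threshold (adjusted p = 1 for both), and 0% of the 43542 probes did, with 5.46% at an unadjusted p under 0.05. The mean log2 ratio of G6pd2 over Gapdh was -6.38 ± 1.66 after CL and -6.45 ± 0.47 after saline (SD, n = 2 each), and their difference of 0.07 turned to -1.11 without CL-treated replicate 1 and to -0.26 without saline white fat replicate 2. Without CL-treated replicate 1 the difference of G6pd2 turned to -0.15 and that of Gapdh was 0.96. Without replicate 2 they were 1.33 and 0.08. Without saline white fat replicate 1 or 2 the G6pd2 difference was 0.91 or 0.27.

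Between CL-treated white fat and brown fat both tissue and treatment differ, and this comparison shares arrays with each of the others. The G6pd2 difference was 2.49-fold, with CL-treated white fat higher (log2 1.32, SE 0.53, 95% interval 0.07 to 2.56). It did not pass limma's threshold after adjustment (adjusted p = 0.201), where 3.49% of probes did. It was among the 22.7% with an unadjusted p under 0.05. Gapdh overlapped between the groups, at a difference of -0.57 (log2, SE 0.41, 95% interval -1.54 to 0.40, limma adjusted p = 0.453). Without CL-treated replicate 2 the G6pd2 difference was 2.06, and without replicate 1 it was 0.58. Each of these fits leaves 1 CL-treated array, which is assumed to vary like the other groups. The ratio of G6pd2 over Gapdh was 3.70-fold higher in CL-treated white fat with no overlap (log2 1.89, exact two-sided permutation p = 0.333), with a log2 difference of 0.71 without CL-treated replicate 1 and 3.06 without replicate 2. The Gapdh difference was -0.06 with quantile normalization, -0.92 with scaling on the 5 reference genes, and -0.13 and -1.01 without CL-treated replicate 1 and 2.

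**Figure D2:**
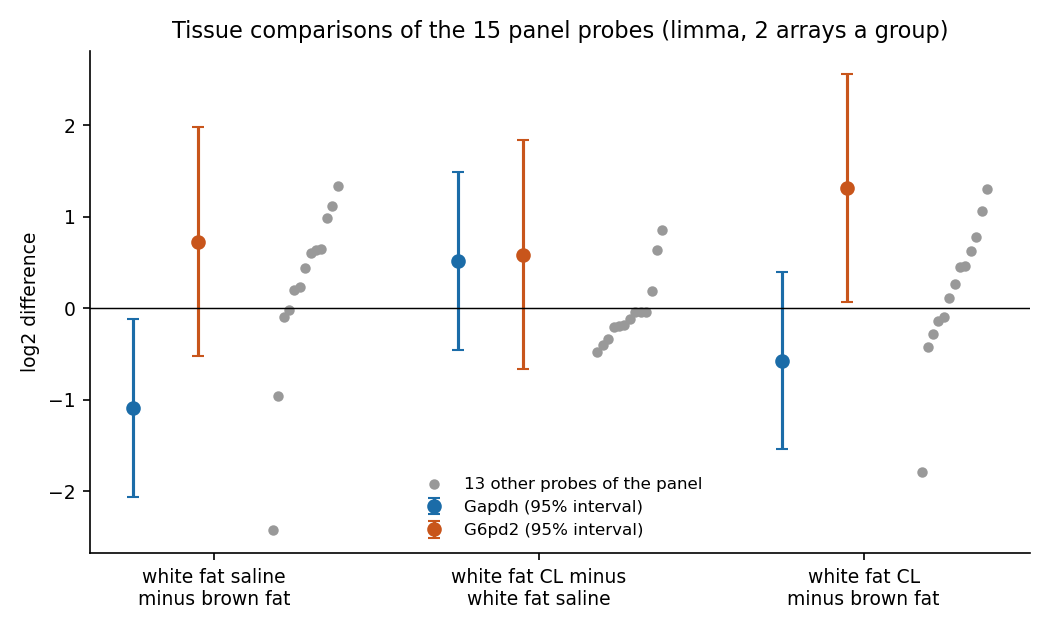
Log2 differences between tissue groups from limma, with 2 arrays a group. Blue and orange points are Gapdh and G6pd2 with 95% intervals, and grey points are the 13 other probes of the same custom panel, in ascending order and without their intervals. G6pd2 was on the higher side in all 3 comparisons and Gapdh on the lower side in both comparisons with brown fat.

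The culture arrays followed brown adipocytes from day 0 to day 7, with 1 array per day and so with no replicate check. Days 0, 3, 5 and 7 lay in rows 1, 2, 3 and 4 of a slide column, so day and slide position cannot be told apart. G6pd2 was 1.45 on day 0, 3.20 on day 3, 3.15 on day 5 and 3.01 on day 7. It was thus 3.37-fold, 3.26-fold and 2.95-fold higher on days 3, 5 and 7 than on day 0, and at least 2-fold higher on day 3, 5 and 7 were 10.7%, 10.4% and 9.57% of the probes well above background on at least 1 culture array. The step came before day 3, and the later days differed from day 3 by -0.05 and -0.19. Of 48586 probes 5.36% were at least 2-fold higher on each of the 3 days, as G6pd2 was.

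Gapdh was 9.38 on day 0, 9.79 on day 3, 9.65 on day 5 and 9.82 on day 7. It was 1.33-fold, 1.20-fold and 1.36-fold higher than on day 0, differences of 0.41, 0.27 and 0.44 that are close to the SD of 0.39 between tissue replicates of this probe (pooled over the 3 pairs). For G6pd2 that SD was 0.66, and its 3 differences were 1.75, 1.70 and 1.56. The CL-treated white fat replicates alone lay 1.48 apart for this probe. These SDs describe single tissue arrays, and a difference of 2 arrays varies more, so they are no replicate check for the culture. The log2 ratio of G6pd2 over Gapdh was -7.93 on day 0 and -6.59, -6.49 and -6.81 on days 3, 5 and 7. Relative to Gapdh the G6pd2 signal was 2.53-fold, 2.70-fold and 2.18-fold higher than on day 0. With quantile normalization the log2 differences of this ratio were 0.98, 0.85 and 0.62, each under 2-fold.

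Scaling set the size of these differences and not their direction. The median of all probes shifted from day 0 by -0.16, -0.27 and -0.13 on days 3, 5 and 7. With quantile normalization the Gapdh differences were 0.75, 0.76 and 0.73. With scaling on the 5 reference genes they were 1.17, 0.99 and 0.93, and those of G6pd2 were 2.51, 2.42 and 2.05. That scaling raised the median of all probes by 0.60, 0.45 and 0.36, and 1 of its genes, Actb (cytoplasmic actin), was itself 4.73-fold lower on day 3 than on day 0 in the main scaling. A linear trend on the day, fitted with limma over the 4 culture arrays, gave a change over 7 days of 1.54 for G6pd2 (adjusted p = 0.612) and 0.38 for Gapdh (adjusted p = 0.933). That fit called 0 of 48630 probes, with 4325 at an unadjusted p under 0.05.

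**Figure D3:**
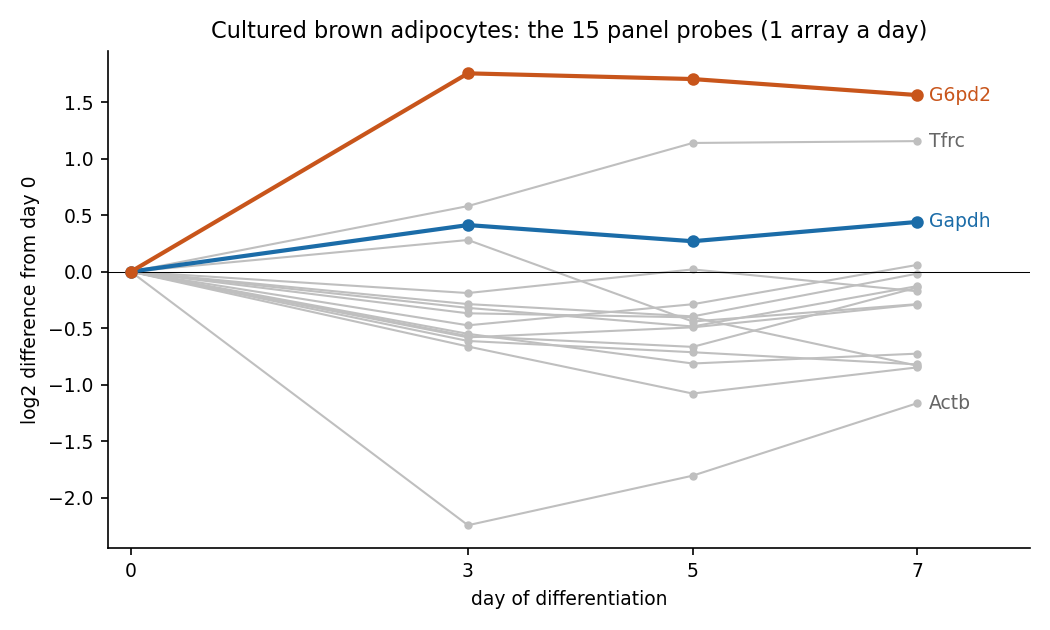
Log2 difference from day 0 for the 15 probes of the custom panel in cultured brown adipocytes, 1 array per day. G6pd2 (orange) lay above the other 14 probes on days 3, 5 and 7, Gapdh (blue) lay above all but G6pd2 and Tfrc, and grey lines are the other 13 probes.

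All tissue arrays lay in 1 scan and all culture arrays in the other, so tissue against culture and scan cannot be told apart in the order of the levels. Over the 7 conditions Gapdh was highest on culture day 7 (9.82), followed by day 3 (9.79), brown fat (9.72), day 5 (9.65), day 0 (9.38), CL-treated white fat (9.15) and saline white fat (8.64). Neighbours in this order were 0.03 to 0.27 apart down to CL-treated white fat, less than the pooled SD of 0.39, while the last step of 0.52 exceeded it but not the SD of 0.62 within CL-treated white fat. For G6pd2 the order was day 3 (3.20), day 5 (3.15), day 7 (3.01), CL-treated white fat (2.77), saline white fat (2.19), brown fat (1.46) and day 0 (1.45). Only the step of 0.73 from saline white fat to brown fat exceeded the pooled SD of 0.66. That difference did not pass limma's threshold (SE 0.53, adjusted p = 0.40). The SDs describe single tissue arrays and are no test of the steps in either order. Both orders depend on the scaling. On the 5 reference genes Gapdh was 3.60 and 3.11 in brown fat against 3.13, 2.94 and 2.89 on days 3, 5 and 7, whereas with quantile normalization brown fat (17.82 and 17.69) lay below those days (18.25, 18.26 and 18.23). For G6pd2 on the reference genes day 0 (-5.97) lay below brown fat (-4.87 and -4.96), and brown fat overlapped with saline white fat (-4.41 and -4.96).

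The panel offers other genes printed the same way, with 20 spots each. Of the 15 panel probes, 1 was called by limma between saline white and brown fat, the glycerol kinase gene Gk, which was 5.37-fold lower in white fat (adjusted p = 0.0117). Its signal in saline white fat was 1.15 and 0.938 times the 95th percentile of the negative control spots, so the size of that difference is uncertain. Only Gk lay further towards brown fat than Gapdh among the 13 other probes. In white fat after CL 11 of the 13 lay below either member, and Tfrc (0.86, limma adjusted p = 0.911) and Gk (0.63, 0.952) lay above them. In CL-treated white fat against brown fat G6pd2 (1.32) and Gusb (1.30), the β-glucuronidase gene, had nearly equal differences, and that of G6pd2 was 0.58 without CL-treated replicate 1.

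In culture the 13 other panel probes had median differences from day 0 of -0.47, -0.48 and -0.29 on days 3, 5 and 7. Tfrc, the transferrin receptor that brings iron into cells, was the only one of them above Gapdh, at 0.58, 1.14 and 1.15, and G6pd2 lay above Tfrc on each day. As a reference transcript Gapdh had the third narrowest range of the panel over the 10 arrays, 1.28 on the log2 scale. Ppia, cyclophilin A, spanned 1.00 and B2m, the light chain of class I MHC, 1.03. With median scaling the range of Gapdh was 1.38, wider than the 0.79 of Ppia, the 0.73 of B2m and, by less than 0.01, that of Hprt. The range of G6pd2 was 2.08.

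The lists for the surrounding pathways were almost unmeasured under gene names. Of 22 genes of glycolysis and glucose uptake only Gapdh had a named probe, of 13 of the pentose phosphate pathway and NADPH supply only G6pd2, and of 8 of fatty acid synthesis 0. Among 77 other probes with a gene symbol that were well above background on all 10 arrays, those most like Gapdh over the 7 conditions were the predicted gene Gm21953 (Pearson r = 0.82), Tfrc (0.81), Tmlhe (0.67), Gk (0.67) and H2al2b (0.58). Those most like G6pd2 were Ccdc82 (0.68), Tagap (0.65), Gm21953 (0.60), B020031M17Rik (0.59) and Tfrc (0.57). Gapdh and G6pd2 themselves were related at 0.26 and ranked 19th and 14th of 77 in likeness to each other. These coefficients rest on 7 points that share arrays and scaling. The filter did not exclude faint probes, since its flag was also set for some negative control spots. In saline white fat Tmlhe, H2al2b and B020031M17Rik lay at -2.33, -2.28 and -2.32. These levels were below that of Gk (-1.73), whose signal there was close to the upper end of the negative control spots. The coefficients of Gk and of these fainter probes are therefore uncertain.

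**Figure D4:**
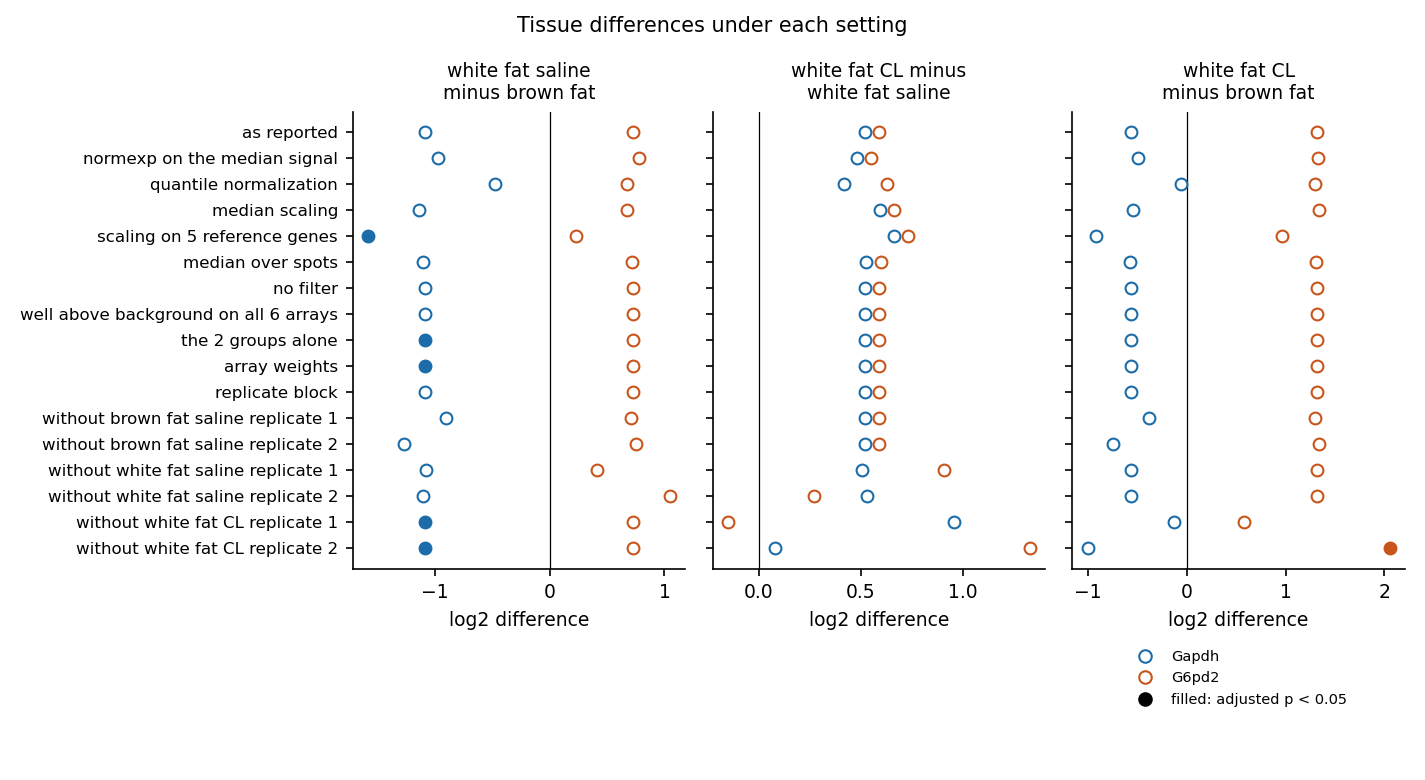
Log2 differences of Gapdh (blue) and G6pd2 (orange) between tissue groups under each setting, with the reported setting on top. Filled points have an adjusted p under 0.05 in limma, and calls over all probes also rose in each such setting where they were counted. Gapdh between saline white and brown fat was filled in 5 settings, and G6pd2 in 1, between CL-treated white fat and brown fat without CL-treated replicate 2, a fit in which 1 CL-treated array is assumed to vary like the other groups.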

How the data were processed

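The scanner files were deposited with a spot intensity (background-subtracted processed signal), median spot and background brightness, and flags. They come from Agilent Feature Extraction 11.0.1.1 per the file headers and 9.1 per the submitters' processing notes, and which is right is not settled. The authors' deposited table of log2 values lists 18997 probes and neither member, so no value of it was used. Control spots, negative control spots and spots with an outlier flag were left out, the spots of each probe were averaged on the log2 scale, and the array's 75th percentile was subtracted. The number of arrays limits the precision.

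A probe was tested if both arrays of 1 or more tissue groups had it well above background (43542 probes). The 6 tissue arrays were fitted in 1 limma model (R 4.3.3, limma 3.58.1, 3 residual and 4.46 prior degrees of freedom), two-sided, with Benjamini-Hochberg adjustment over all tested probes, and calls have an adjusted p under 0.05. The code was tested on simulated data. The p-values measure only the spread between these samples.

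RefSeq gave 1 symbol to 116 of the 123 probes with a RefSeq accession. The members and gene lists were chosen with earlier results of these data known. Named genes are the members, measured genes of those lists and, per member, the 5 probes with a symbol most like it over the 7 conditions. Gk and Ldhal6b, of the same custom panel, were also named after their values were seen.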

Additional observations from a re-analysis of the deposited data

How the results depend on the processing

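The alternatives were normexp correction (on the median signal, since the files hold no mean signal, chosen after seeing the data), quantile normalization, median scaling, scaling on 5 reference genes, medians over spots, no filter, a filter asking for signal well above background on each of the 6 arrays, fits of 2 groups alone, array weights, a replicate block and leaving out each tissue array. A slide block could not be fitted because the 6 tissue arrays shared a scan, and the deposited value table lists neither member.

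Of 16 alternatives Gapdh between saline white and brown fat stayed lower in all and passed in 5: -1.59 on 5 reference genes, -1.09 in the 2 groups alone, with array weights and without either CL-treated array. Calls over all probes rose under those settings too, to 16207 of 43542 with array weights against 4526 as reported. On the reference genes they were not counted. Leaving out 1 array gave differences between saline white and brown fat of -1.27 to -0.91 for Gapdh and 0.41 to 1.05 for G6pd2. After CL it gave 0.08 to 0.96 for Gapdh and -0.15 to 1.33 for G6pd2, and against brown fat -1.01 to -0.13 and 0.58 to 2.06. The ratio of G6pd2 over Gapdh differed by 1.49 to 2.15, -1.11 to 1.25 and 0.71 to 3.06 in the 3 comparisons, turning after CL without CL-treated replicate 1 (-1.11) or saline white fat replicate 2 (-0.26), as G6pd2 turned without CL-treated replicate 1 (-0.15). In culture Gapdh moved to 1.17, 0.99 and 0.93 on days 3, 5 and 7 and G6pd2 to 2.51 and 2.42 on days 3 and 5 with the reference genes, and Gapdh to 0.76 on day 5 with quantile normalization. The cause of these changes was not tested.

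Calls between saline white and brown fat (4526 as reported) numbered 1385 with no filter, 14260 in the 2 groups alone, 16207 with array weights and 458 to 13978 without 1 array. After CL (0 as reported) they numbered 32 with normexp, 2 with the stricter filter, 1 with the replicate block and 0 to 155 without 1 array. Against brown fat (1521 as reported) they numbered 544, 2871 and 268 under the first 3 of those settings and 344 to 11550 without 1 array. Probes 2-fold apart from day 0 numbered 10297, 14251 and 10527, and 5412, 5998 and 5055 with normexp. The replicate block changed no call of either member (limma adjusted p = 0.121 and 0.297 between saline white and brown fat). Deviations of equal-numbered replicates correlated at -0.02 and -0.08 between brown fat and either white fat group and at 0.50 between saline and CL-treated white fat, and the labels do not say that the numbers pair the samples.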

Other observations

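The panel holds another gene named for glucose metabolism, Ldhal6b, a lactate dehydrogenase-like gene. Its signal was 0.175 to 0.442 times the 95th percentile of the negative control spots on the 6 tissue arrays and 0.777 to 1.21 times on the 4 culture arrays, so no difference is given for it.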
